A study of Mus musculus with 6 samples.

Results

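The genes described here are 10 members of the mTORC1 and amino acid sensing pathway, chosen by symbol from the 31641 genes of the deposited table: Sesn1, Sesn2, Sesn3, Rragc, Rragd, Mtor, Rptor, Deptor, Ddit4 and Tsc2. All 10 were found. They were measured by poly(A) RNA sequencing in E14, an embryonic stem cell line of the mouse, with 3 knockdown libraries (KD; genotype Nat10 KD, with doxycycline) and 3 control libraries (CON; genotype Nat10 WT, without doxycycline). Nat10 KD and Nat10 WT are the genotypes as labelled. Nat10 encodes the enzyme that adds N4-acetylcytidine to RNA, and the study concerns its part in pluripotency and in the 2C state, which resembles the cells of the early embryo. Every KD library and no CON library received doxycycline, so the drug and the knockdown cannot be told apart. The labels do not say how the knockdown was built or whether it is 1 clone.

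mTORC1 is a protein kinase complex at the surface of the lysosome that promotes protein synthesis and growth when amino acids and growth factors are at hand. Amino acids act through the Rag GTPases, which bring the complex to the lysosome, and sestrins hold that route back when leucine is scarce. Growth factors and stress act through the TSC complex, which switches off Rheb, the GTPase that activates the kinase. In stem cells the pathway is known for setting the rate of growth and, when inhibited, for a paused state.

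The libraries held 33770755 to 39524273 counts in KD and 35304394 to 39450202 in CON. Nat10 itself averaged 27.4 ± 1.24 CPM in KD and 149 ± 2.93 CPM in CON (SD, n = 3 each). All 8 embryonic stem cell markers examined were detected in every library and lower in KD, with summed levels of 2380 to 2430 CPM in KD and 5800 to 5860 CPM in CON, scaled by library size. Of 8 neural markers 7 were in the table, all of them with counts in every library, with 121 to 126 CPM in KD and 72.7 to 77.3 CPM in CON; in edgeR 3 of them rose (Syp 32.1-fold), 3 fell (Tubb3 6.59-fold) and Rbfox3 did not pass (median -0.28, log2). Of 8 feeder fibroblast markers 6 were in the table, with 29.9 to 34.1 CPM in KD and 14 to 16.7 CPM in CON. Of the 4 tested, 3 rose (Col1a2 10.8-fold) and Thy1 fell 2-fold, Dcn and Lum were not analysed here, and Col3a1 held 0 to 3 counts a library. Trophectoderm markers (7 of 7) summed to 698 to 751 CPM in KD and 574 to 618 CPM in CON. Of these, 3 rose, 3 fell and Krt8, which makes up most of the sum, did not pass (474 ± 18.1 CPM in KD and 467 ± 17.7 CPM in CON under TMM scaling, explained below), with a median of 0.02. Primitive endoderm markers (6 of 6) summed to 14.2 to 16.4 CPM in KD and 13.3 to 14.4 CPM in CON, with 2 higher, 1 lower and 3 that did not pass. The part of these shifts in the results below was not tested. KD-3 stood further from its replicates than any other library, with a chi-square per degree of freedom over genes of 14.6 and 10.9 against KD-1 and KD-2, compared with 2.69 to 5.07 between CON libraries and 2.99 between KD-1 and KD-2.

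Levels below are CPM, counts relative to the library total after scaling by TMM (a method that centres most genes between libraries), as mean ± SD of 3 libraries. A fold change compares KD with CON and has its standard error (SE) beside it. Across 18019 genes tested, 63% passed at an adjusted p of 0.05 (edgeR), 32.2% higher in KD and 30.8% lower. Of the 10 genes, 3 rose (Sesn1, Sesn3 and Rragc), 5 fell (Sesn2, Deptor, Ddit4, Rptor and Rragd), and Mtor and Tsc2 did not pass. Their median log2 fold change was -0.14, beside 0.018 over all genes tested. The KD and CON ranges did not overlap for 8 of the 10, against 67.1% of all genes, and 8 of 10 passed against 63%, so both shares are read as near their background. Scaling by library size alone moves the median of all genes to 0.25 (log2), and each fold change below moves up with it. There 5 members were higher, against 46% of all genes, and 4 were lower, against 19.6%, with a median of 0.089.

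**Figure D1:**
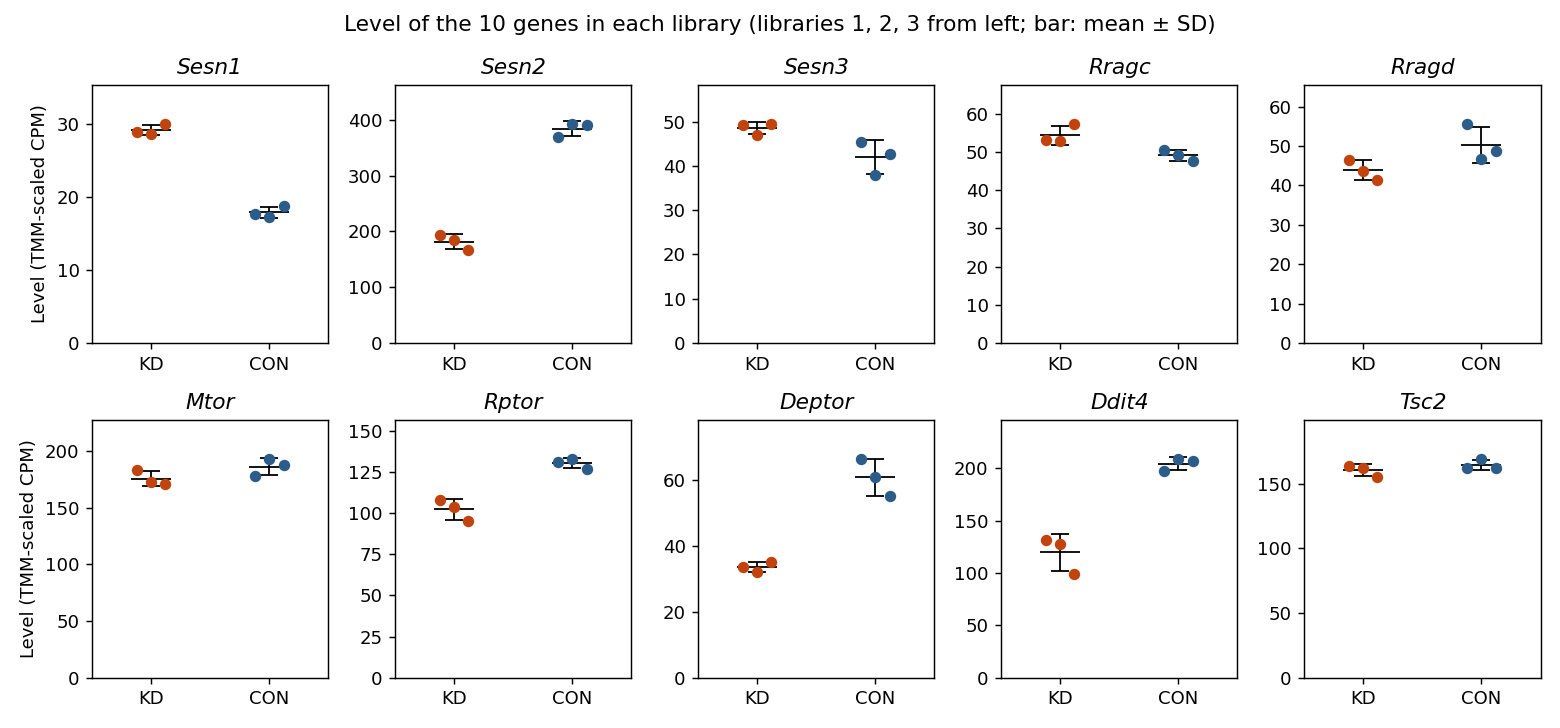
TMM-scaled CPM of each gene (vertical axes from 0) in the 3 KD libraries, left, and the 3 CON libraries, right, with the mean ± SD. The groups do not overlap for any gene but Mtor and Tsc2, and the KD-3 point for Ddit4 (99.4 CPM) lies below the other KD libraries.

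Per length, Ddit4 and Sesn2 were by far the most abundant of the 10. In FPKM, the authors' counts scaled by gene length and library total, KD libraries averaged 73.9 ± 10.9 for Ddit4 and 56.6 ± 4.03 for Sesn2, against 108 ± 2.84 for Ddit4 and 102 ± 3.3 for Sesn2 in CON libraries (SD, n = 3 each, here and in the levels that follow). Mtor (18.8 ± 0.662 FPKM in KD, 17 ± 0.65 in CON), Tsc2 (18 ± 0.479 in KD, 15.8 ± 0.392 in CON) and Rragc (17.6 ± 0.838 in KD, 13.6 ± 0.439 in CON) came next. The KD ranges of Mtor and Tsc2, and of Tsc2 and Rragc, overlapped, so their order in KD is within the spread. Rragd (9.16 ± 0.502 FPKM in KD, 8.96 ± 0.863 in CON) and Rptor (8.21 ± 0.47 in KD, 8.94 ± 0.204 in CON) followed, with overlapping ranges in CON. At the low end, KD libraries ranked Sesn1 (7.93 ± 0.197 FPKM) above Deptor (4.11 ± 0.195) and Sesn3 (3.44 ± 0.0983), whereas CON libraries ranked Deptor (6.34 ± 0.599 FPKM) above Sesn1 (4.16 ± 0.171) and Sesn3 (2.54 ± 0.237). The KD ranges of Rptor and Sesn1 also overlapped, while Sesn1, Deptor and Sesn3 were apart from one another in both groups.

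The promoters of Sesn2 and Ddit4, the most abundant members and among those that fell, and of Rragc, the only member with a match, are shown to set their sequence beside the values. Of the 10 genes, 9 had windows in RefSeq (GRCm38.p6), 10 windows in all, each of the 250 bases before an annotated start. Both strands were searched for TGATGNAA, the core of the element that ATF4 shares with C/EBP proteins (in 3.45% of 32851 promoters), for CACGTG, the E-box within the CLEAR element bound by TFEB and TFE3 (6.02%), and for GTAAACA, a FOXO element (3.17%). The single match was a CACGTG in the Rragc window, starting 112 bases before the start and in capitals below. No match says only that these letters are not in these windows. The windows of Sesn1 and Sesn3 lie wholly inside those genes as GENCODE M21 places them, not upstream of them. Bases that GENCODE M21 already places inside the gene were left off, giving chr4:132510502-132510706 (reverse strand), chr10:59951835-59952020 (reverse strand) and chr4:123917183-123917432 (forward strand), each 5′ to 3′.
Sesn2: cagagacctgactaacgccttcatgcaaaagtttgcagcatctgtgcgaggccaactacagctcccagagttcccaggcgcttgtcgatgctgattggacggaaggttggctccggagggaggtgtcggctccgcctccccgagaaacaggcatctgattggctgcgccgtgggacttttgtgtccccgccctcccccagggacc
Ddit4: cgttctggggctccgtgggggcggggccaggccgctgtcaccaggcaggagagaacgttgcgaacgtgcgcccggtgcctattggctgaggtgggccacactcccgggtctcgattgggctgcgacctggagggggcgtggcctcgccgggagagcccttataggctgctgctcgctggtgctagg
Rragc: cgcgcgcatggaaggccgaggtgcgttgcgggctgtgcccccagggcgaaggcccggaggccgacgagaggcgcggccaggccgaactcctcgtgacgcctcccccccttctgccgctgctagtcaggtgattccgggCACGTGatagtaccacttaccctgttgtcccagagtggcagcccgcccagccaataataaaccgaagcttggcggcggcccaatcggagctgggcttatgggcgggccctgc

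The 3 sestrin genes moved apart: Sesn2 fell 2.11-fold while Sesn1 rose 1.63-fold and Sesn3 1.16-fold. Sestrins bind GATOR2 and so restrain mTORC1, and the protein of Sesn2 is known as a leucine sensor. Sesn2 lies on chromosome 4 (132492032 to 132510501, reverse strand, coordinates here and below in GRCm38 from GENCODE M21). It had 193, 185 and 167 CPM in the KD libraries 1 to 3, against 369, 392 and 391 CPM in the CON libraries 1 to 3, an order kept below. Every KD library was below every CON library by a margin wider than either group's range. The log2 fold change was -1.08 (SE 0.053, edgeR adjusted p = 1.35e-10), and -0.85 with libraries scaled by size only.

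Sesn1, known as a target of p53 and of FOXO factors, lies on chromosome 10 (41809935 to 41908424, forward strand). It had 29, 28.6 and 30 CPM in the KD libraries, against 17.7, 17.3 and 18.8 CPM in the CON libraries. The groups were far apart and each was tight, with an SD of 0.703 CPM in KD and 0.751 CPM in CON. Its log2 fold change was 0.70 (SE 0.071, edgeR adjusted p = 4.38e-07).

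Sesn3, also known as a FOXO target, lies on chromosome 9 (14275067 to 14333101, forward strand). It had 49.2, 46.9 and 49.4 CPM in the KD libraries, against 45.4, 37.9 and 42.7 CPM in the CON libraries. The gap between the lowest KD and the highest CON library was small, and CON-2 was the lowest of all. Its log2 fold change was 0.21 (SE 0.069, edgeR adjusted p = 0.0159). Without CON replicate 2 it was 0.13 and did not pass (edgeR adjusted p = 0.117). With libraries scaled by size only it was larger, 0.437 (edgeR adjusted p = 4.86e-05).

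Within a library the make-up of the sestrin transcripts does not depend on how libraries are scaled. Sesn2 held 84.1, 83.9 and 81.7% of the summed FPKM of the 3 genes in the KD libraries, against 93.5, 94.3 and 93.7% in the CON libraries. Sesn2 thus remained the main sestrin transcript in every library, at a lower share in each KD library. The share of Sesn1 was 11.7 ± 0.948% in KD and 3.83 ± 0.169% in CON (SD, n = 3 each, exact two-sided permutation p = 0.1). For Sesn3 the share was 5.07 ± 0.373% in KD and 2.34 ± 0.275% in CON (SD, n = 3 each, exact two-sided permutation p = 0.1). No group overlapped the other for any of the 3 shares, which sum to the whole and so are not separate results. Of single genes 67.1% did not overlap either, and 0.1 is the smallest p that 3 libraries against 3 can give. The summed level was 71.2, 68.8 and 63.7 FPKM in the KD libraries, against 105, 110 and 111 FPKM in the CON libraries. It was therefore lower in every KD library, although 2 of the 3 genes rose.

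**Figure D2:**
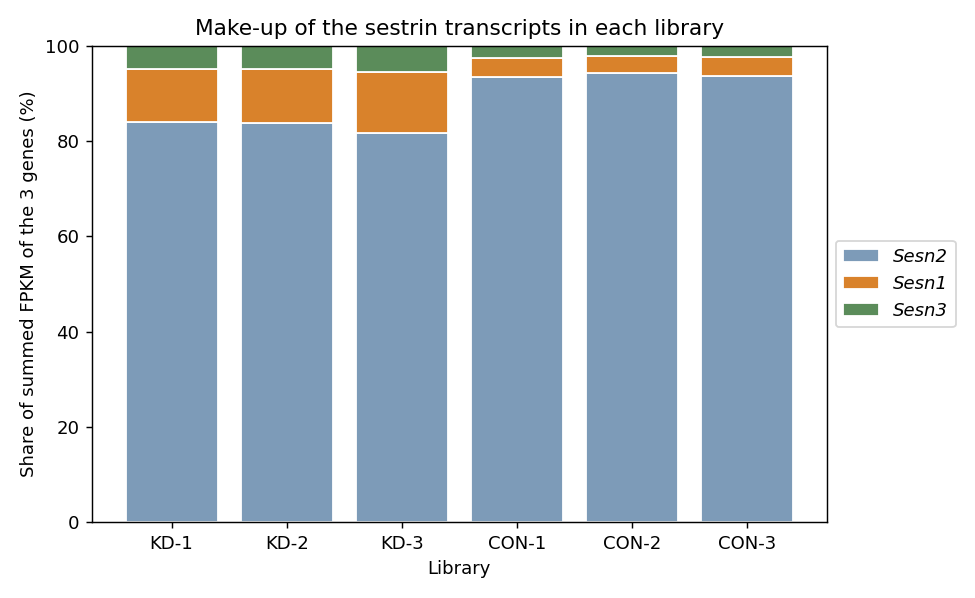
Share of each sestrin gene in the summed FPKM of Sesn1, Sesn2 and Sesn3 (vertical axis, percent), 1 bar per library, KD on the left. Sesn2 holds 81.7 to 84.1% in the KD libraries and 93.5 to 94.3% in the CON libraries. Per length, Sesn1 takes most of the difference. In counts, not per length, the share of Sesn3 is higher in KD by 9.255 percentage points and that of Sesn1 by 7.23.

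The paralogs Rragc and Rragd showed small differences of opposite sign under TMM scaling. RagC and RagD each pair with RagA or RagB to form the dimer that recruits mTORC1, and both genes are known targets of TFEB and TFE3. Rragc (chromosome 4, 123917446 to 123936997, forward strand) had 53.1, 52.8 and 57.3 CPM in the KD libraries, against 50.6, 49.3 and 47.6 CPM in the CON libraries. The groups did not overlap, but their nearest libraries, KD-2 and CON-1, were close. Its log2 fold change was 0.145 (SE 0.058, edgeR adjusted p = 0.0408). This call was lost without any single library, at adjusted p from 0.0554 to 0.168 (edgeR), and in DESeq2 (adjusted p = 0.0758). With libraries scaled by size only the log2 fold change of Rragc was larger, 0.374 (edgeR adjusted p = 4.18e-05).

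Rragd (chromosome 4, 32983037 to 33022180, forward strand) had 46.4, 43.7 and 41.4 CPM in the KD libraries, against 55.5, 46.6 and 48.6 CPM in the CON libraries. KD-1 and CON-2 nearly touched, and CON-1 stood above the rest. The log2 fold change was -0.195 (SE 0.072, edgeR adjusted p = 0.0275), but it was 0.033 and did not pass with libraries scaled by size only (edgeR adjusted p = 0.702). It did not pass without CON replicate 1 (-0.13, edgeR adjusted p = 0.149) or without KD replicate 2 (-0.20, edgeR adjusted p = 0.0647). The ratio of Rragd to Rragc FPKM, which no scaling changes, was 0.564, 0.535 and 0.467 in the KD libraries, against 0.709, 0.61 and 0.658 in the CON libraries. It was lower in every KD library, by 0.34 on the log2 scale (n = 3 each, exact two-sided permutation p = 0.1, the smallest possible).

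Of the complex itself, the kinase transcript Mtor did not pass while those of 2 partners fell. Mtor (chromosome 4, 148448611 to 148557683, forward strand) had 183, 173 and 171 CPM in the KD libraries, against 178, 193 and 188 CPM in the CON libraries. The ranges overlapped. The log2 fold change was -0.085 with a 95% interval of -0.19 to 0.02 (edgeR adjusted p = 0.135), and with libraries scaled by size only it turned to 0.14 and passed (edgeR adjusted p = 0.013).

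Rptor encodes raptor, the subunit that brings substrates to the kinase. The gene (chromosome 11, 119602905 to 119899576, forward strand) had 108, 104 and 95.6 CPM in the KD libraries, against 131, 133 and 127 CPM in the CON libraries. All KD libraries were below all CON libraries, with KD-3 lowest. It fell 1.28-fold (log2 fold change -0.35, SE 0.052, edgeR adjusted p = 2.44e-05). With libraries scaled by size only the fall was smaller, 1.09-fold, and close to the threshold (edgeR adjusted p = 0.0488).

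Deptor encodes an inhibitory partner of mTOR that sits in both of its complexes. The gene (chromosome 15, 55112317 to 55259271, forward strand) had 33.6, 32.2 and 35.3 CPM in the KD libraries, against 66.5, 61 and 55.3 CPM in the CON libraries. The CON libraries spread widely but stayed well above the KD libraries. It fell 1.81-fold (log2 fold change -0.86, SE 0.071, edgeR adjusted p = 4.98e-08).

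Relative to Mtor in the same library, both partners were lower in KD. The ratio of Deptor to Mtor FPKM was 0.209, 0.211 and 0.235 in the KD libraries, against 0.425, 0.36 and 0.334 in the CON libraries. The ratio of Rptor to Mtor FPKM was 0.44, 0.449 and 0.42 in the KD libraries, against 0.553, 0.516 and 0.506 in the CON libraries. Neither ratio overlapped between groups, which held for 67.1% of single genes as well. They differed by -0.77 and -0.27 on the log2 scale (n = 3 each, exact two-sided permutation p = 0.1 for both, the smallest possible).

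Upstream of Rheb, the stress-induced inhibitor gene Ddit4 fell and Tsc2 did not pass. Ddit4 encodes REDD1, which activates the TSC complex and is known to be induced by low oxygen, DNA damage and ATF4. The gene (chromosome 10, 59949669 to 59951834, reverse strand) had 132, 128 and 99.4 CPM in the KD libraries, against 198, 209 and 207 CPM in the CON libraries. KD-3 was clearly the lowest, and the other KD libraries were also well below every CON library. It fell 1.71-fold (log2 fold change -0.77, SE 0.079, edgeR adjusted p = 5.42e-07), and without KD replicate 3 the log2 fold change was -0.66.

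Tsc2 encodes tuberin, the subunit of the TSC complex that acts on Rheb. The gene (chromosome 17, 24595816 to 24632630, reverse strand) had 164, 162 and 155 CPM in the KD libraries, against 162, 169 and 162 CPM in the CON libraries. The ranges overlapped. The log2 fold change was -0.035 with a 95% interval of -0.13 to 0.06 (edgeR adjusted p = 0.514), and with libraries scaled by size only it turned to 0.19 and passed (edgeR adjusted p = 0.00125). Tsc2 shares 693 exonic bases with Pkd1 on the opposite strand, which had 5438, 5138 and 3923 counts in the KD libraries, against 2481, 2843 and 2383 counts in the CON libraries. What this overlap adds to the Tsc2 counts was not tested.

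**Figure D3:**
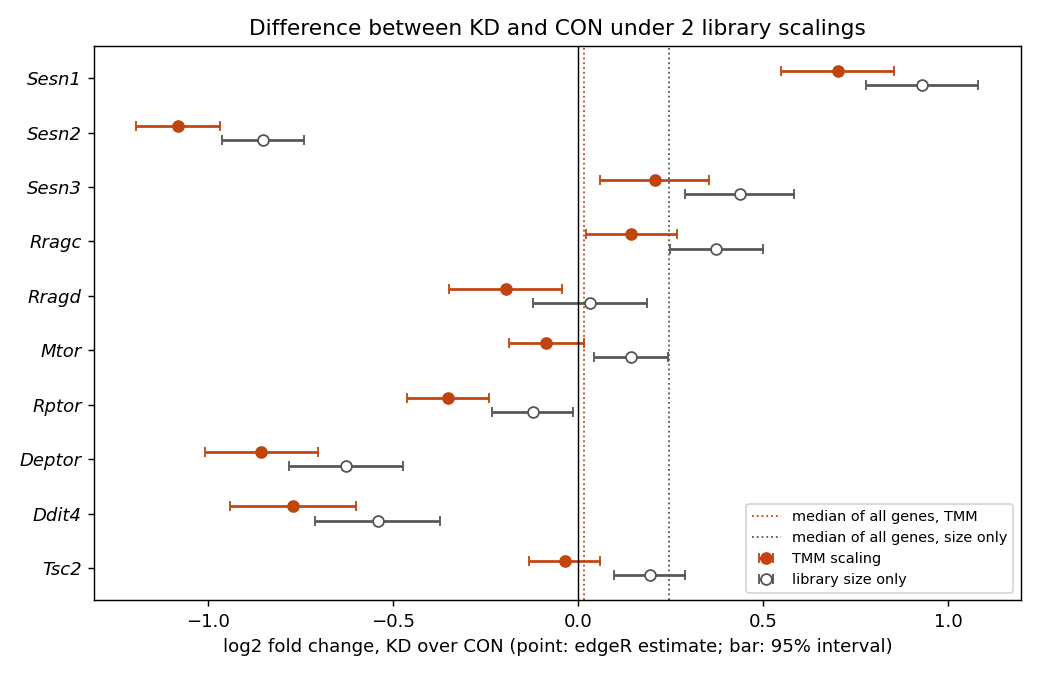
Log2 fold change of KD over CON for each gene (horizontal axis) with its 95% interval, from edgeR with TMM scaling (filled) and with libraries scaled by size only (open). Sesn1, Sesn3 and Rragc lie above 0 and Sesn2, Deptor, Ddit4 and Rptor below 0 under both, whereas Rragd, Mtor and Tsc2 change sign. Dotted lines mark the median of all genes, 0.018 and 0.25.

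Around these members 81 other genes were read from 6 lists, all of them tested. They are genes of the pathway and 11 transcription factors known to act on member genes. Of the 81, 20 rose, 40 fell and 21 did not pass, so 74.1% passed beside 63% of all genes. The transcription factors gave 9 of the falls and 0 of the rises. The median log2 fold change of the 81 was -0.11, beside 0.018 over all genes tested. Scaled by library size alone, 36 rose and 25 fell, with a median of 0.118 beside 0.25 over all genes. Of all genes, 32.2% were higher and 30.8% lower under TMM scaling, against 46% and 19.6% by size alone. The balance turned as the whole table shifted, and the median of the 81 stayed below that of all genes under both scalings. These shares are the background for each list below.

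Of 9 other subunits and assembly factors of the mTOR complexes, 1 rose, 2 fell and 6 did not pass (median -0.03). Scaled by library size alone, 5 rose (median 0.20), beside 46% of all genes (median 0.25). Without KD replicate 3, 3 rose, and 1 fell without KD replicate 2 or without CON replicate 3. Tti1, a factor that helps assemble mTOR, rose 1.29-fold to 95.8 ± 4.45 CPM in KD, against 74.2 ± 4.04 CPM in CON. Prr5l, an mTORC2 partner, fell 1.25-fold, and Mlst8, a subunit of both complexes, fell 1.19-fold, to 10.8 ± 0.827 CPM in KD against 12.8 ± 0.659 CPM in CON. Neither passed with libraries scaled by size only.

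Of 11 genes of the Rag and Ragulator platform on the lysosome, 3 rose, 5 fell and 3 did not pass (median -0.05). Scaled by library size alone, 6 rose and 3 fell (median 0.18), beside 46% of all genes higher and 19.6% lower (median 0.25). Fnip1, whose protein works with folliculin on RagC and RagD, fell 2.33-fold to 25.4 ± 2.21 CPM in KD, against 59.3 ± 3.06 CPM in CON, and its paralog Fnip2 fell 1.39-fold. Rraga rose 1.41-fold to 135 ± 3.07 CPM in KD, against 95.9 ± 2.74 CPM in CON. Its paralog Rragb fell 1.4-fold to 15.3 ± 1.54 CPM in KD, against 21.3 ± 0.398 CPM in CON. The RagA and RagB transcripts thus moved in opposite directions under both scalings, whereas those of RagC and RagD differed in sign under TMM scaling only. Among the Ragulator genes, Lamtor4 rose 1.55-fold and Lamtor5 1.13-fold, and Lamtor3 fell 1.26-fold, a call that was lost with libraries scaled by size only.

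Of 16 genes of GATOR1, GATOR2, KICSTOR and the sensors that act on them, 6 rose, 5 fell and 5 did not pass (median 0.07). Scaled by library size alone, 10 rose and 3 fell (median 0.30), beside 46% of all genes higher and 19.6% lower (median 0.25). Castor2, a relative of the arginine sensor Castor1, rose 3.1-fold to 34.4 ± 0.635 CPM in KD, against 11.1 ± 0.645 CPM in CON (edgeR adjusted p = 6.95e-11). Castor1 itself averaged 26.7 ± 2.19 CPM in KD and 25.5 ± 1.98 CPM in CON and did not pass (edgeR adjusted p = 0.474), though it was higher with libraries scaled by size only (edgeR adjusted p = 0.0044). Lars, the leucyl-tRNA synthetase that has been proposed as a leucine sensor, fell 2.77-fold to 193 ± 13.9 CPM in KD, against 534 ± 9.61 CPM in CON. The KICSTOR gene Itfg2 fell 2.85-fold to 35.7 ± 0.512 CPM in KD, against 102 ± 2.09 CPM in CON. GATOR1 is the complex that acts as the brake on the Rags, and its genes Nprl3 and Nprl2 rose 1.46-fold and 1.38-fold. The GATOR2 genes Wdr24, which rose 1.52-fold, and Seh1l and Sec13, which fell 1.57-fold and 1.24-fold, moved apart. Seh1l and Sec13 also serve the nuclear pore, and the fall of Sec13 did not pass with libraries scaled by size only.

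Of 20 genes of the TSC complex, Rheb and the kinases upstream, 7 rose, 10 fell and 3 did not pass (median -0.13). Scaled by library size alone, 10 rose and 2 fell (median 0.097), beside 46% of all genes higher and 19.6% lower (median 0.25). Akt1, which inactivates the TSC complex by phosphorylation, rose 1.92-fold to 167 ± 12.4 CPM in KD, against 86.6 ± 3.24 CPM in CON. The catalytic AMPK genes moved apart, with Prkaa1 rising 1.48-fold to 48.3 ± 3.99 CPM in KD against 32.6 ± 2.69 CPM in CON, and Prkaa2 falling 1.72-fold to 10.7 ± 0.894 CPM in KD against 18.5 ± 1.41 CPM in CON. Pik3ca, a catalytic subunit of PI3 kinase, rose 1.28-fold. Rheb fell 1.23-fold to 84.8 ± 0.565 CPM in KD, against 104 ± 1.16 CPM in CON, its relative Rhebl1 fell 1.86-fold, and Pdpk1, which activates AKT, fell 1.16-fold. With libraries scaled by size only, Rheb did not pass and Pdpk1 turned to 0.019 (log2) without passing.

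Of 14 substrates and effectors of mTORC1, 3 rose, 9 fell and 2 did not pass (median -0.38). Grb10, an adaptor that dampens insulin signalling, fell 4.08-fold to 25.1 ± 0.808 CPM in KD, against 103 ± 3.18 CPM in CON. Eif4ebp1, which encodes the translation repressor 4E-BP1, fell 2.85-fold to 217 ± 34.8 CPM in KD, against 618 ± 22.1 CPM in CON. Larp1, which binds the messages of ribosomal proteins, fell 1.86-fold, and the initiation factor gene Eif4b 1.36-fold. Lpin1, a phosphatidate phosphatase, rose 2.16-fold to 55.8 ± 1.15 CPM in KD, against 25.8 ± 1.9 CPM in CON, while Pdcd4 and Rps6kb2 rose 1.23-fold and 1.12-fold. Most of this list still fell with libraries scaled by size only, with 8 lower and 4 higher (median -0.152). Of all genes 19.6% were lower and 46% higher there.

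**Figure D4:**
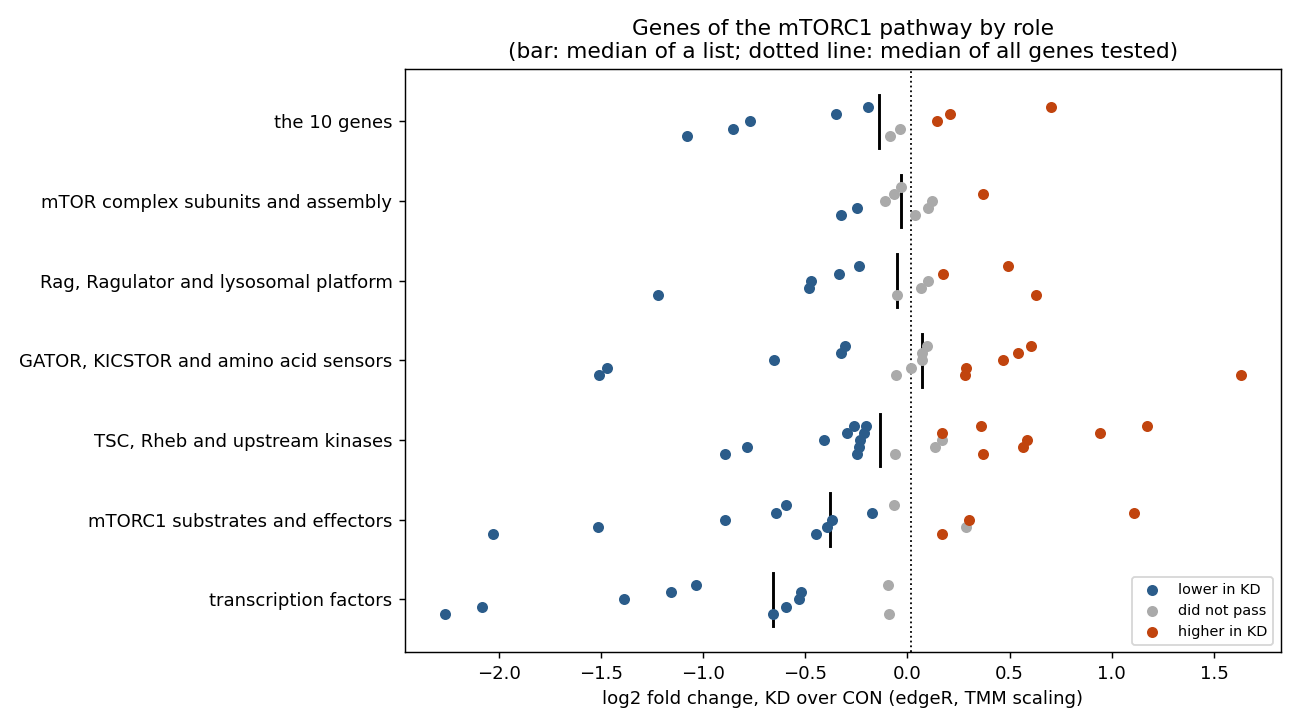
Log2 fold change of KD over CON (horizontal axis, edgeR with TMM scaling) for the 10 genes and for the 6 lists of other genes. There is 1 point per gene, coloured by whether it passed. The bars mark each list's median, from 0.07 for the sensors to -0.66 for the transcription factors, and the dotted line the median of all genes tested (0.018).

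Transcription factors known to act on member genes were lower or did not pass. Of 11, 9 fell and 2, Foxo1 and Foxo4, did not pass (median -0.66), beside 30.8% of all genes lower (median 0.018). With libraries scaled by size only, 9 fell and Foxo4 rose (median -0.428), beside 19.6% of all genes lower and 46% higher. Atf4, the factor of the integrated stress response that is known to induce Sesn2 and Ddit4, fell 4.23-fold to 91.7 ± 1.95 CPM in KD, against 388 ± 2.49 CPM in CON. Its partner Ddit3 fell 4.8-fold to 4.32 ± 0.94 CPM in KD, against 20.8 ± 1.3 CPM in CON. Trp53, which encodes p53, fell 2.05-fold to 191 ± 6.95 CPM in KD, against 391 ± 4.12 CPM in CON, and Foxo3 fell 2.23-fold to 76.6 ± 2.94 CPM in KD, against 171 ± 6.56 CPM in CON. Of the members named as targets of ATF4, p53 or FOXO factors, Sesn2 and Ddit4 fell, while Sesn1 and Sesn3 rose. The part of these factors in the changes of the members was not tested. The Tfeb and Tfe3 transcripts fell 1.51-fold and 1.44-fold. Under TMM scaling Rragc rose 1.11-fold and Rragd fell 1.14-fold. By size alone Rragc rose 1.3-fold and Rragd did not pass. The proteins of these factors and their place in the cell were not measured.

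Over the 6 libraries, the profiles nearest to that of Sesn2 among 9777 other genes of at least 10 CPM were those of Rbpms, Atxn2l and Aire, at distances of 0.0466, 0.0508 and 0.0618 (Euclidean, on log2 CPM centred on each gene's mean). Nearest to Ddit4 were Irf2bpl, Srm and Dnph1, at distances of 0.0529, 0.061 and 0.0831. Each of these genes fell in KD, with log2 fold changes from -1.05 to -1.11 for the first 3 and from -0.75 to -0.79 for the last 3. They were picked for likeness over these same KD and CON libraries, so a fall near that of the member is built in.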

How the data were processed

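Messenger RNA was sequenced from 6 libraries, 3 KD and 3 CON, grouped by their titles. Per the submitters' processing notes, FastQC 0.11.9, STAR 2.5.3a and featureCounts were used with build mm10. Nothing in the sources used here gives the annotation release, the strand setting or how multi-mapping reads were counted. The deposited table holds the authors' raw counts per gene for 31641 genes. It also holds FPKM that the authors made from those counts, which return 1 length per gene in every library for 12898 genes checked and carry no TMM scaling. Columns were matched to samples by treatment and number, and 26 symbols replaced by dates were restored from gene identifiers, of which 31521 (99.6%) were found in GENCODE M21 (GRCm38). Between 70 and 71.7% of counts from 1 to 20 were even, so a count may not be 1 independent fragment, and counts divided by 2 were tried.

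Counts were tested in R 4.3.3 with edgeR 4.0.16: filterByExpr (18019 genes), TMM (factors 1.08 to 1.084 in KD and 0.922 to 0.926 in CON), the robust quasi-likelihood F-test and Benjamini-Hochberg adjustment over the 18019 genes (threshold 0.05). The SE is the log2 fold change over the square root of F. The fit was first tested on simulated data in which 200 genes were changed. It called 70 of 98 genes in the right direction at an absolute log2 fold change of 0.5, and 90 of 96 at 1. There were 6 false calls. Every simulated gene had the same dispersion and no library stood apart as KD-3 does, so these counts are not the power in these data. Smaller changes, and a share of changed genes as large as in these data, were not simulated. A count was worth 0.0253 to 0.0296 TMM-scaled CPM. Whether replicates were separate cultures is not in the labels, so the p-values may rest on technical spread alone. Within-library shares and ratios used FPKM and exact permutation tests in SciPy 1.17.1. Alternatives were other scalings and filters, DESeq2 1.42.0, a replicate block, counts divided by 2 and leaving out each library.

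The members and lists were chosen with earlier results of these data known. The text names Nat10, every member, from each list the 4 genes or fewer with the smallest p in each direction, and for Sesn2 and Ddit4 the 3 nearest profiles; gene-model names were passed over, and 1 list gene is not reported here. Castor1, Foxo1, Foxo4, Tfeb, Tfe3 and the cell type markers given by name were added with their values known. Where exons of 2 genes overlap on opposite strands, their reads cannot be separated unless counting used strand, which is not stated. Besides Tsc2 this concerns Deptor (303 exonic bases shared with Gm9920, which held 0 to 11 counts), Rptor (84 with Rptoros, 0 to 4 counts), Rragc (264 with 4930535I16Rik), Rps6kb2 (1224 with Ptprcap), Nprl3 (1340 with Mpg), Mlst8 (997 with Bricd5), Foxo1 (674 with Gm20402), Rhebl1 (546), Itfg2 (155), Seh1l (126), Prr5l (78), Syp (875) and Krt8 (101). Ddit3 shares 105 bases with another model of its name on the same strand. Overlaps were looked up for members and lists, not for the nearest profiles.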

Additional observations from a re-analysis of the deposited data

How the results depend on the processing

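Of 364 recomputed counts and fold changes, 331 kept their direction and side of the threshold or stayed within 1.5 times the reported count. With libraries scaled by size only, 3535 genes were lower in KD, 5 members and 36 pathway list genes were higher and 25 pathway list genes were lower. The log2 fold changes of Mtor, Rragd and Tsc2 turned to 0.144, 0.033 and 0.194 there. That scaling leaves out the TMM factors, which alone makes this shift. Rragc lost its call with DESeq2 size factors in edgeR (0.131), with no low-count filter (0.146), in DESeq2 (0.131) and with the replicate block (0.144, edgeR adjusted p = 0.0826); the cause was not tested. Leaving out 1 library at a time gave log2 fold changes of 0.1 to 0.159 for Rragc, -0.251 to -0.127 for Rragd and 0.134 to 0.258 for Sesn3, and 1 to 2 members called higher, with 1 only without CON replicate 2. Sesn1, Sesn2, Ddit4, Deptor and Rptor passed in the same direction in each of these alternatives. Of 156 counts for single lists, 12 moved by more than 1.5 times, 8 of them with libraries scaled by size only and the other 4 in the list of mTOR complex subunits, where 1 gene fell without a low-count filter or without KD replicate 2 or CON replicate 3, and 3 rose without KD replicate 3. The replicate block gave 5559 genes higher and 5347 lower. Libraries that share a number did not deviate together, with correlations of -0.061, 0.015 and -0.039, and no KD library correlated best with the CON library of its own number. Shares and ratios kept their direction in counts, not per length, and without any 1 library. In counts, the share of Sesn3 rose by more than that of Sesn1, the reverse of the order per length. With the replicate block the exact permutation p of shares and ratios was 0.25, the smallest it can give. Depth was not limiting for these genes, as each of the 10 held at least 604 counts in every library.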
